A study of Homo sapiens with 23 samples.

Results

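The mitochondrial respiratory chain and ATP synthase are described here in MCF10A-ER-Src cells, a non-transformed human mammary epithelial line in which a fusion of the Src kinase with the hormone-binding domain of the estrogen receptor is switched on by 4-hydroxytamoxifen (TAM). Genes were chosen by symbol alone, from probe sets that the array annotation gives to exactly 1 gene, by the names of the nuclear-encoded subunits (NDUFA, NDUFB, NDUFC, NDUFS and NDUFV with a number, SDHA to SDHD, UQCR, COX4 to COX8, ATP5). Symbols of assembly factors and pseudogenes were dropped. This gave 76 of the 19775 genes with a probe set of their own, read by 148 probe sets, and each gene is read from its brightest probe set, by mean log2 signal over the arrays. The 76 comprise 32 subunits of complex I, 3 of complex II, 6 of complex III, 14 of complex IV and 17 of complex V, the ATP synthase inhibitor ATP5IF1, and 3 non-coding RNAs (NDUFB2-AS1, NDUFV1-DT and NDUFV2-AS1) that share letters with a subunit and encode none. Probe sets shared by several genes were not used, so some subunits are not analysed here, and COX4I1, CYC1 and COXFA4 (formerly NDUFA4) fall outside the names above.

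RNA came from 8 groups of 23 arrays: siSTAT3 TAM, siSTAT3 EtOH, siNEG TAM and siNEG EtOH, each at 24 h and at 4 h of treatment. All cells carried ER-Src and received 25 nM of an siRNA pool for 48 h beforehand, against the transcription factor STAT3 (siSTAT3) or non-targeting (siNEG), and then 1 µM TAM or its vehicle, ethanol (EtOH). Each group had 3 arrays except siSTAT3 TAM 24 h, which has 2 here, replicates 2 and 3. They are called biological replicates of this 1 line in the methods, no sample description names separate cultures, and the p-values measure the spread between these arrays. Values are MAS5 signals in arbitrary linear units, scaled by the authors to the same mean on every array, so that they give the share of a transcript in the RNA hybridized, and fewer cells of a kind and less RNA per cell cannot be told apart.

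Complexes I to IV pass electrons from NADH and succinate to oxygen, and complexes I, III and IV pump protons out of the mitochondrial matrix. Complex V, the ATP synthase, uses the returning protons to make ATP. Most subunits are encoded in the nucleus and must be matched to a few encoded in mitochondrial DNA, and the nuclear genes are known targets of the transcription factors NRF1 and GABP, which bind near their start sites, and of the coactivators PPARGC1A and PPARGC1B.

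The upstream sequences of the 5 genes with the greatest called fall of each complex after TAM, described further on, are shown to set their promoters beside their values. Each is the 250 bases before the start of the gene, 5′ to 3′ on the strand of the gene, from RefSeq on GRCh38.p14. NDUFS6 lies at chr5:1801157-1801406 (+), SDHD at chr11:112086623-112086872 (+), UQCRC1 at chr3:48609647-48609896 (-), COX5A at chr15:74938074-74938323 (-) and ATP5MC1 at chr17:48892537-48892786 (+). Capitals mark matches on either strand to the NRF1 motif CGCANGCG or the GABP/ETS motif CCGGAAG, which did not overlap in these 5 windows.
NDUFS6: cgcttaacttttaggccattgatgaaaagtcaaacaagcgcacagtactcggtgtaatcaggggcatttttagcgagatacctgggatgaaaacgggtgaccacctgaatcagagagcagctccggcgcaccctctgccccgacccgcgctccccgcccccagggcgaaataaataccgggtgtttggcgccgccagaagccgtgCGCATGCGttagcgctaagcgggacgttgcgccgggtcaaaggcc
SDHD: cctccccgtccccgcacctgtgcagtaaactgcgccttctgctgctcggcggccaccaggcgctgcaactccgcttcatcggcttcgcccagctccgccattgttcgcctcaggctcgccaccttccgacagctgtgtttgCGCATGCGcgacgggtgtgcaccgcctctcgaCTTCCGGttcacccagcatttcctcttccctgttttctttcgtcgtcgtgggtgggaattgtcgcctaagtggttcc
UQCRC1: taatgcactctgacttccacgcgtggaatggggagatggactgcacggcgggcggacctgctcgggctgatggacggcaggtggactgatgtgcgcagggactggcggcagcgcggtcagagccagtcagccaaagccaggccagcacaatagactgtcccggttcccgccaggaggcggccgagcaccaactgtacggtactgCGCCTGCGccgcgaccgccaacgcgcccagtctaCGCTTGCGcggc
COX5A: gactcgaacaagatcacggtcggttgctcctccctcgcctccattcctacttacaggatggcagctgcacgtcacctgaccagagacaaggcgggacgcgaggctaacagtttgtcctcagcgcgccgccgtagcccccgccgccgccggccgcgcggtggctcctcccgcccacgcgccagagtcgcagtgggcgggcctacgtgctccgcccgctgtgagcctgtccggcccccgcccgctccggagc
ATP5MC1: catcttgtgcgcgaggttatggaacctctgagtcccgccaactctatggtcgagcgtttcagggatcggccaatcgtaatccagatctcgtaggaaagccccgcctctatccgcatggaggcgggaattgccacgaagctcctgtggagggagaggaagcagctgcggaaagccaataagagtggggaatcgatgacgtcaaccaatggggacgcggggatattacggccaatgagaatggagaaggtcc
NDUFS6 and SDHD held the same 8 bases, CGCATGCG, and UQCRC1 held 2 NRF1 matches (CGCCTGCG and CGCTTGCG), while COX5A and ATP5MC1 held none of the letters searched. Upstream windows were found for 63 of the 73 coding members, with the first listed start of a gene used. The NRF1 motif was in 22 of the 63 (34.9%), against 9.17% of 27305 windows of the same length, and the GABP/ETS motif was in 15 (23.8%), against 8.82% of all. The STAT motif TTCNNNGAA was in 2 of the 63 (3.17%), against 6.78% of all. Of the 16 windows of members that fell after TAM at 24 h, 7 held the NRF1 motif, 2 the GABP/ETS motif and 0 the STAT motif. A YY1 motif (AAGATGGC) was in 1 of the 63 windows, against 1.37% of all, and an E-box (CACGTG) in 6, against 6.49% of all. These are matches of letters, described without a test.

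The arrays were checked first for the knockdown, for cell type and for quality. STAT3 averaged 331 to 425 units in the 4 siSTAT3 groups and 4022 to 6119 units in the 4 siNEG groups, 10.5-fold to 15.3-fold lower with siSTAT3 under matched treatment (limma adjusted p at most 1.02e-09). The basal markers measured, KRT5, KRT14, ITGB4 and EGFR, and the general epithelial marker CDH1 averaged 1627 to 15774 units. Of 6 luminal markers KRT18, KRT8 and GATA3 averaged 15267, 6388 and 1423 units, ESR1 and FOXA1 239 and 129 units, and PGR 11.1 units. The 3 immune markers measured averaged under 100 units, as did 4 of the 5 fibroblast and 3 of the 4 endothelial markers (the exceptions, COL1A1 and PECAM1, averaged 507 and 273 units). Median signal per array was 73.5 to 85.3 units and ACTB had a 3′ to 5′ signal ratio of 1.21 to 1.44. The 2 arrays of siSTAT3 TAM 24 h stood apart from each other, with highest signals of 30662 units on replicate 2 and 47355 units on replicate 3, and the main results that rest on them are also given without each. In siSTAT3 TAM 4 h replicate 2 likewise stood apart, with a highest signal of 44347.5 units, against 32806 units on replicate 1 and 30461 units on replicate 3.

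Across the 8 groups, the respiratory chain genes were highest as a set on the 3 siNEG EtOH 24 h arrays. Expressed as the median log2 difference of the 76 members from the siNEG EtOH 4 h mean, the arrays stood at -0.03 and 0.10 for siSTAT3 TAM 24 h, 0.05, 0.11 and 0.13 for siSTAT3 EtOH 24 h, -0.04, 0.00 and 0.01 for siNEG TAM 24 h, and 0.18, 0.19 and 0.20 for siNEG EtOH 24 h. At 4 h they stood at -0.01, 0.03 and 0.13 for siSTAT3 TAM, 0.04, 0.06 and 0.09 for siSTAT3 EtOH, -0.01, 0.01 and 0.11 for siNEG TAM, and -0.06, 0.00 and 0.05 for siNEG EtOH. The siNEG EtOH 24 h arrays overlapped with no other group. The siSTAT3 EtOH 24 h arrays lay between them and the siNEG TAM 24 h arrays and overlapped with neither. Nearly all members are bright on these arrays (67 have a geometric mean of at least 2000 units), and the median of all 3110 genes of at least 2000 units, a limit chosen after seeing the data, moved the same way with a smaller range: 0.05 to 0.06 on the siNEG EtOH 24 h arrays, -0.04 to 0.00 on the siNEG TAM 24 h arrays, and 0.04 and -0.01 on siSTAT3 TAM 24 h replicates 3 and 2. Values for such bright genes are therefore given beside the counts below.

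**Figure D1:**
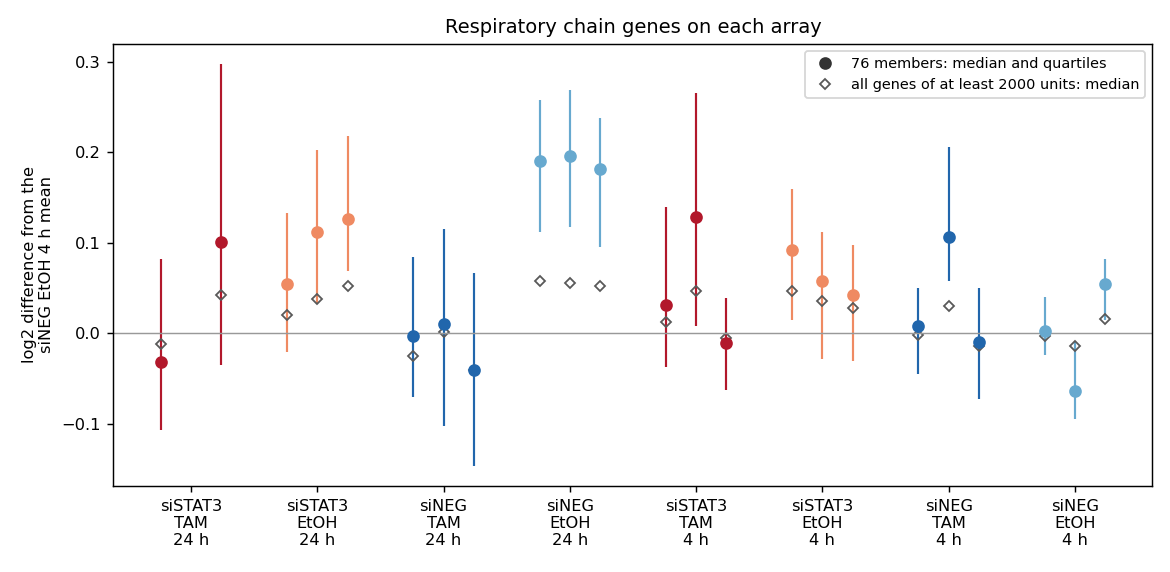
Each filled point is the median over the 76 respiratory chain genes of the log2 difference between 1 array and the mean of the 3 siNEG EtOH 4 h arrays, with lines to the quartiles, and diamonds give the median of all 3110 genes of at least 2000 units on the same array. The 3 siNEG EtOH 24 h arrays sit at 0.18 to 0.20, above every other array, and the 3 siNEG TAM 24 h arrays sit at -0.04 to 0.01.

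TAM at 24 h in siNEG cells was the comparison in which the respiratory chain genes moved most often. After TAM, 17 of the 76 genes fell and 0 rose, and the falls were small, from 0.21 to 0.52 on the log2 scale, or 1.16-fold to 1.44-fold. The fit was limma over all 23 arrays with Benjamini-Hochberg adjustment over all 54675 probe sets, and a gene is said to rise or fall where its main probe set had an adjusted p under 0.05. In the same comparison 15.4% of the 19775 genes were called in either direction and 9.31% were called lower, against 22.4% of the members. Among the genes of at least 2000 units, however, 18.5% were called lower, so that the count of 17 is near the share of bright genes. Of all 76 members 69 were negative, with a median of -0.20, against medians of -0.08 for bright genes and -0.04 for all genes. In 51 of the 76 members (67.1%) the 3 TAM arrays were all lower than the 3 EtOH arrays, against 20.5% of all genes and 40.0% of bright genes. Scaled by quantile normalization in place of the deposited scaling, 22 members were called, with a median of -0.19. The count was 8 to 11 with any 1 of the 6 arrays left out (8 without TAM replicate 3 or without EtOH replicate 1, 9 without EtOH replicate 2 or 3, 10 without TAM replicate 1 and 11 without TAM replicate 2), and 0 in a fit of these 6 arrays alone.

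Complex I, which oxidizes NADH, held 9 of the 17, and 31 of its 32 subunits had negative values (median -0.22). The greatest fall was in NDUFS6, an accessory subunit that binds zinc in the matrix arm and whose upstream window holds an NRF1 match. Its signal was 7001, 6649 and 5667 units on the siNEG TAM 24 h arrays, against 8865, 9379 and 9400.0 units on the siNEG EtOH 24 h arrays. All 3 TAM arrays were lower than every EtOH array, and the log2 fold change was -0.52 (SE 0.10, adjusted p = 0.0022). NDUFB10, an accessory subunit of the membrane arm, had 6291, 6412 and 6252 units with TAM, against 8753, 9003 and 8008 units with EtOH, for a log2 difference of -0.44 (SE 0.09, adjusted p = 0.0038). The other 7 that fell were the accessory subunits NDUFB3 (-0.36), NDUFB2 (-0.28), NDUFA6 (-0.28), NDUFA12 (-0.28), NDUFB1 (-0.27), NDUFC1 (-0.26) and NDUFB5 (-0.24), with adjusted p of 0.0044 to 0.047. On their main probe sets none of the measured core subunits that bind flavin or iron-sulfur clusters passed the test: NDUFV1, which takes electrons from NADH, had -0.21 (adjusted p = 0.20), NDUFS1 had -0.09 (adjusted p = 0.63), and NDUFS7, which passes electrons to quinone, had -0.26 (adjusted p = 0.095). A dimmer probe set of NDUFS1 (382 units) was called, at -0.45 (adjusted p = 0.027), while its other further probe sets were not. NDUFV2, also a core subunit, had the highest value of the complex, 0.03, with 6992, 7370.2 and 7015 units with TAM, against 6906, 6828 and 7244 units with EtOH.

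Complex II, succinate dehydrogenase, is shared with the tricarboxylic acid cycle, and 1 of its 3 measured genes fell. SDHD, a membrane anchor, had 5316, 5579 and 5945 units with TAM, against 6990.3, 7189.9 and 7468 units with EtOH. These groups did not overlap, and the log2 fold change was -0.36 (SE 0.07, adjusted p = 0.0019). SDHA, the flavoprotein that oxidizes succinate, had 2262, 2355 and 2362 units with TAM, against 2853, 2974 and 2684 units with EtOH, and missed the threshold (-0.29, adjusted p = 0.081). SDHC, the other membrane anchor, had a log2 fold change of 0.03 (SE 0.09).

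In complex III, which passes electrons from quinol to cytochrome c, 3 of 6 genes fell. UQCRC1, a core protein on the matrix side, had 4565, 4609.7 and 4358 units with TAM, against 5860.3, 5689 and 6014 units with EtOH, for a log2 difference of -0.38 (SE 0.08, adjusted p = 0.0053). Its partner core protein UQCRC2 fell by 0.21 (SE 0.06, adjusted p = 0.028) and the small subunit UQCR10 fell by 0.34 (SE 0.10, adjusted p = 0.043). UQCRQ, UQCRB and UQCR11 had -0.14, -0.09 and 0.04.

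Complex IV, cytochrome c oxidase, held 1 of the 17. COX5A, a nuclear-encoded subunit on the matrix side, had 13802, 14518 and 13599 units with TAM, against 17504, 16895 and 18705 units with EtOH. The TAM arrays lay clear of the EtOH arrays, and the log2 fold change was -0.34 (SE 0.07, adjusted p = 0.0023). The other 8 subunits of at least 100 units (COX5B, COX6A1, COX6B1, COX6C, COX7A2, COX7B, COX7C and COX8A) were all negative, from -0.04 for COX7A2 to -0.21 for COX7B on their main probe sets, and none of these passed, although a dimmer probe set of COX7B was called, at -1.04.

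Complex V held 3, and all 17 of its genes had negative values (median -0.21). ATP5MC1, 1 of the 3 genes for subunit c of the proton-driven ring, had 2885, 3062 and 3023 units with TAM, against 4795, 4139 and 3937 units with EtOH, for a log2 difference of -0.52 (SE 0.10, adjusted p = 0.0018). The 3 genes encode the same mature protein, and on their main probe sets the others missed the threshold: ATP5MC3 had -0.27 (SE 0.12, adjusted p = 0.17) and ATP5MC2 -0.10 (SE 0.07, adjusted p = 0.48). A dimmer probe set of ATP5MC3 was called, at -1.10. The differences between these genes were not tested. ATP5PF, of the peripheral stalk, fell by 0.29 (SE 0.08, adjusted p = 0.019) and ATP5ME, of the membrane part, by 0.25 (SE 0.07, adjusted p = 0.040). The catalytic subunits ATP5F1A and ATP5F1B had -0.24 (adjusted p = 0.13) and -0.22 (adjusted p = 0.21). The inhibitor ATP5IF1, which blocks ATP hydrolysis by the enzyme, had -0.20 (SE 0.08, adjusted p = 0.13) on its main probe set. A dimmer probe set of ATP5IF1 (512 units) was called, at -0.44 (adjusted p = 0.011), while another (2865 units) was not (-0.14, adjusted p = 0.58).

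**Figure D2:**
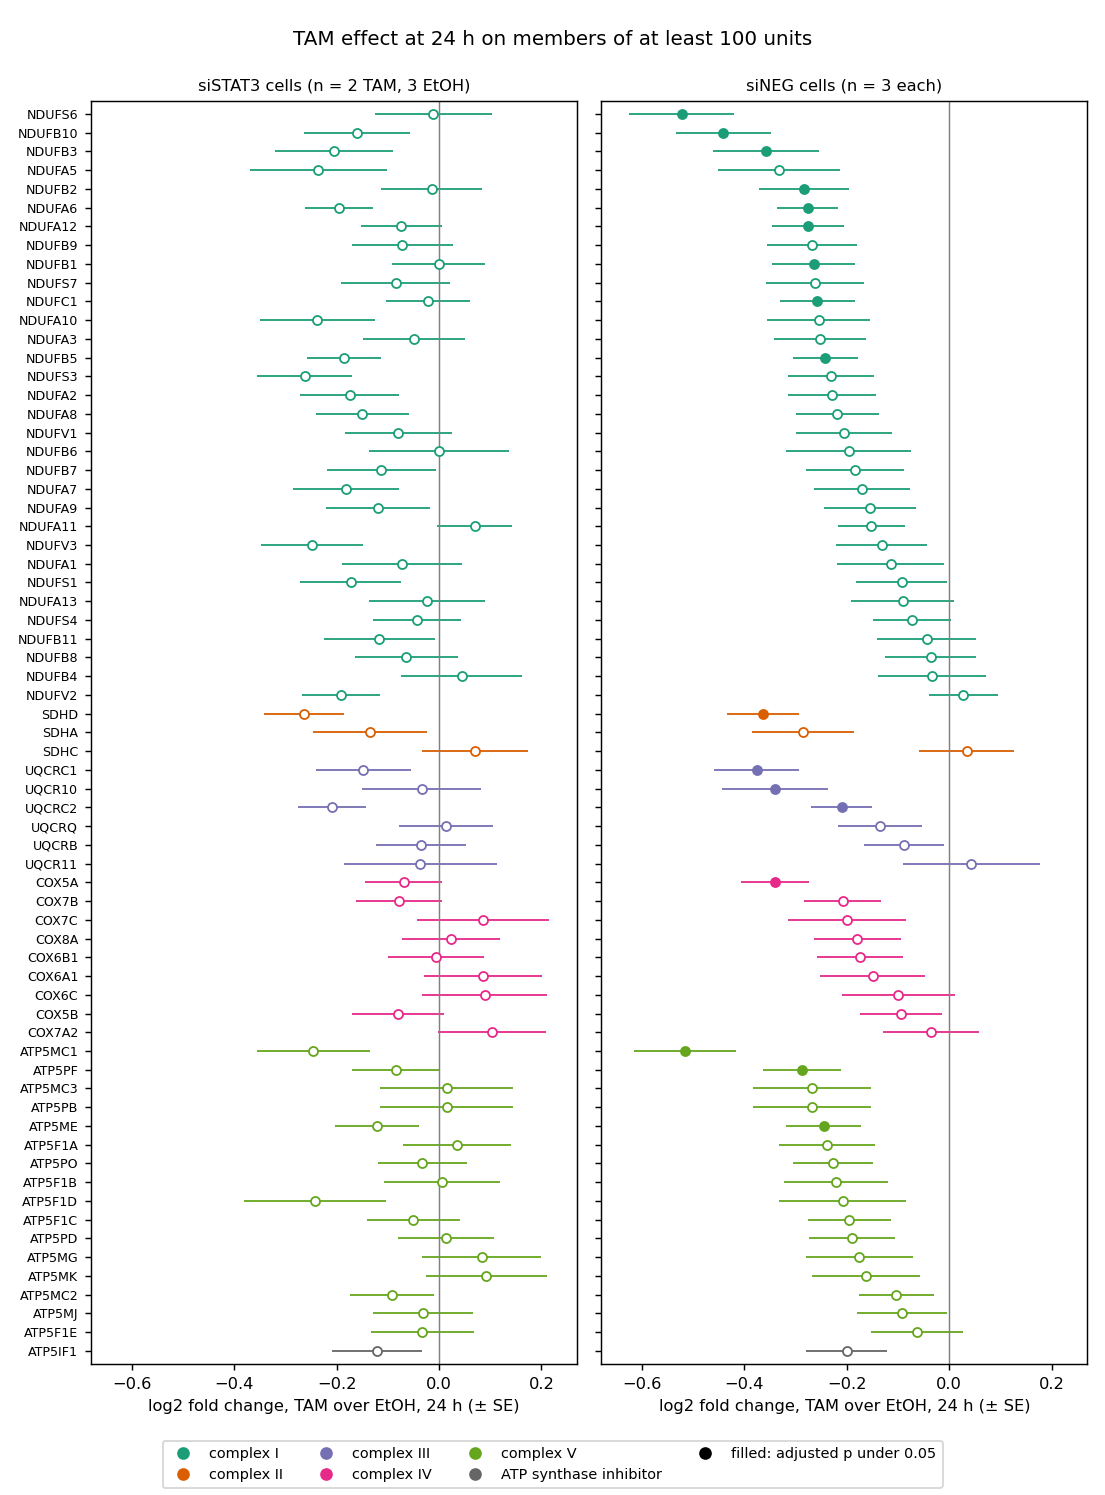
Log2 fold change of TAM over EtOH at 24 h with its SE for the 67 coding members of at least 100 units, in siSTAT3 cells on the left and siNEG cells on the right, coloured by complex and ordered by the siNEG value within each complex. Filled points, 17 in siNEG cells and 0 in siSTAT3 cells, passed an adjusted p of 0.05.

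Further probe sets of the same genes gave a second reading of the same arrays. Of 51 that averaged at least 100 units, 45 were lower with TAM at 24 h in siNEG cells, 14 were called lower and 0 higher, while 10.8% of the 9459 such further probe sets of all genes were called lower. All 11 that belong to the 17 genes were lower. In 9 genes a further probe set was called and the main one was not, for instance in ATP5MC3 (906 units on average, log2 fold change -1.10, adjusted p = 4.3e-05) and COX7B (334 units, -1.04, adjusted p = 1.3e-06). For NDUFA6 both were called, with -0.70 on the further probe set (844 units) and -0.28 on the main one. No member had probe sets called in opposite directions in any comparison.

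Respiratory chain genes showed no such calls early after TAM. At 4 h of TAM in siNEG cells 0 of the 76 members were called, where 3.26% of all genes were, and 2 had an unadjusted p under 0.05 (COX7A1 and NDUFB2-AS1, both with signals too low to interpret, as described further on). The members' median at 4 h was 0.03, against -0.06 for all genes and 0.01 for bright genes. Whether the TAM effect differed between the times was tested as an interaction, a comparison added after seeing the data. It called 2 members, both lower at 24 h relative to 4 h: ATP5MC1 (-0.63, SE 0.14, adjusted p = 0.016) and SDHD (-0.38, SE 0.10, adjusted p = 0.041), with 5.59% of all genes called. The members' median difference was -0.24, against 0.01 for all genes and -0.08 for bright genes, and 30 members had an unadjusted p under 0.05, all negative. ATP5MC1 was also called without each of the 12 arrays in turn, while SDHD was called without siNEG TAM 24 h replicate 3 or siNEG TAM 4 h replicate 2 and was lost without any of the other 10. With means over all probe sets of a gene the SDHD value turned to 0.43 (adjusted p = 0.78). Those means include a further probe set of SDHD that averaged 8.49 units, against 6488 units for the main one.

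Between 24 h and 4 h few members were called in siNEG cells, with EtOH or with TAM. In siNEG EtOH cells, 24 h against 4 h, 71 of the 76 members had positive values (median 0.19, against 0.02 for all genes and 0.06 for bright genes), and 6 rose: NDUFB10 (0.32), NDUFB1 (0.30), COX5B (0.29), ATP5IF1 (0.28), COX6B1 (0.28) and NDUFB5 (0.25), with adjusted p of 0.022 to 0.050. In this comparison 12.3% of all genes were called, 6.82% higher, and 10.8% of bright genes were called higher, against 7.89% of the members. The count of 6 was 22 with a filter at 100 units and 25 with an intensity trend and robust variances. The arrays did not overlap, with 24 h higher, in 47 members (61.8%), against 18.5% of all genes and 35.6% of bright genes. NDUFB5, an accessory subunit of complex I, had 9629, 9685 and 9761 units at 24 h, against 8135, 7844 and 8559.5 units at 4 h. The members' median was 0.13 with quantile normalization, and the count was 0 to 2 with any 1 of the 6 arrays left out (0 without 24 h replicate 1 or 2 or 4 h replicate 2, 1 without 4 h replicate 1 or 3, 2 without 24 h replicate 3).

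In siNEG TAM cells, 24 h against 4 h, the median was -0.04 and 5 of the 76 members fell. In either direction 21.1% of all genes were called, so that members were called less often than genes at large. These were ATP5MC1 (-0.45, SE 0.10), NDUFS6 (-0.45, SE 0.10), COX5A (-0.28, SE 0.07), SDHD (-0.23, SE 0.07) and the low-signal COX7A1 (-1.85, SE 0.49), with adjusted p of 0.0037 to 0.033, and 3 were called without TAM 4 h replicate 3. ATP5MC1 had 2885, 3062 and 3023 units at 24 h of TAM, against 3931, 4229 and 4113 units at 4 h of TAM. The 4 bright genes were thus called lower at 24 h of TAM both against 24 h of EtOH and against 4 h of TAM. Both comparisons use the same siNEG TAM 24 h arrays, so they are not independent. The call of SDHD against 4 h of TAM held under only 6 of 14 alternatives, with values from -0.27 to -0.06. Of the 17 genes that fell against EtOH at 24 h, 16 were negative for 24 h against 4 h of TAM (median -0.15, 4 called). For 24 h against 4 h of EtOH all 17 were positive (median 0.15, 3 called). This rise and the TAM difference at 24 h share the siNEG EtOH 24 h arrays. For NDUFB1 TAM at 24 h and at 4 h differed by 0.01 (SE 0.08), and its TAM difference at 24 h stood beside the rise of the EtOH arrays.

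**Figure D3:**
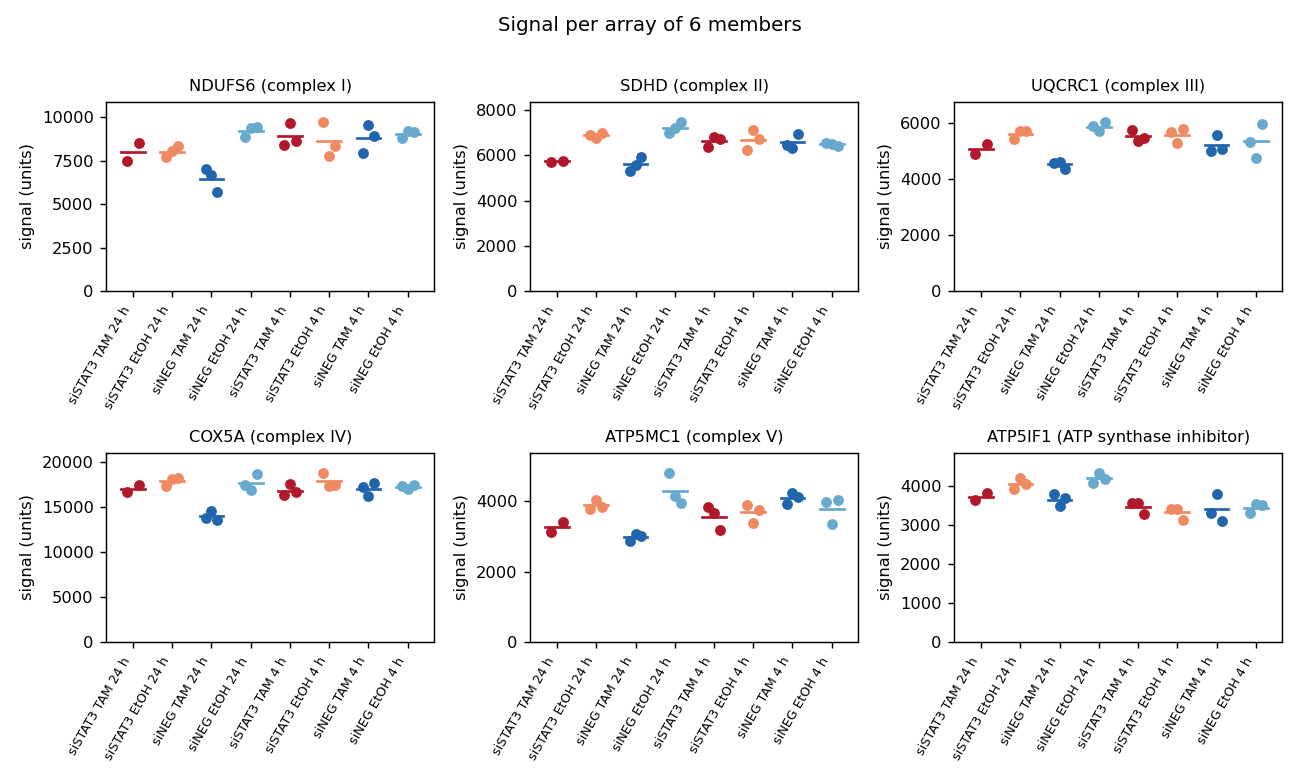
Signal in units on each array (points) and group mean (lines) for the gene with the greatest called fall of each complex after 24 h of TAM in siNEG cells, and for the ATP synthase inhibitor ATP5IF1. NDUFS6, COX5A and ATP5MC1 are lowest on the siNEG TAM 24 h arrays, and ATP5IF1 is higher on the EtOH arrays at 24 h than at 4 h with either siRNA.

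In siSTAT3 cells no member was called after TAM at 24 h, and the median of the members was nearer to 0 than in siNEG cells. With TAM for 24 h, 0 of 76 members passed, where 2.75% of all genes were called, and 10 had an unadjusted p under 0.05, 9 of them negative. The members' median was -0.07, against -0.01 for all genes and -0.02 for bright genes, and 55 of 76 were negative. The arrays did not overlap, with TAM lower, in 25 members (32.9%), against 17.7% of all genes and 26.5% of bright genes, with 2 arrays of TAM in place of 3. The median was 0.01, with 1 member called, without TAM replicate 2 and -0.12 without TAM replicate 3, so that the set's value rests on which of these arrays is used. All 17 genes that fell in siNEG cells had negative values in siSTAT3 cells, which share no arrays with them, from -0.00 for NDUFB1 to -0.26 for SDHD, with a median of -0.12 (-0.06 without TAM replicate 2 and -0.16 without replicate 3), and in 11 of the 17 the arrays did not overlap.

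Members differed in how near the siSTAT3 value was to the siNEG value. SDHD had 5711 and 5766 units in siSTAT3 TAM cells, against 6906, 6769 and 6987 units in siSTAT3 EtOH cells, for a log2 difference of -0.26 (SE 0.08, adjusted p = 0.12). UQCRC2 had 8101 and 8098 units with TAM, against 9347, 9304 and 9448 units with EtOH, and its value of -0.21 (SE 0.07, adjusted p = 0.15) matched that of siNEG cells to the printed digits. NDUFS6 had 7452 and 8490.1 units with TAM, against 7714, 8033 and 8309 units with EtOH, and these groups overlapped (-0.01, SE 0.11). COX5A had 16658 and 17454 units with TAM, against 17341, 18084 and 18239 units with EtOH, for a log2 difference of -0.07 (SE 0.08).

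The difference between the 2 TAM effects at 24 h, siSTAT3 minus siNEG, was tested as an interaction and called 0 of 76 members, where 5.91% of all genes were called. The greatest among bright members were NDUFS6 (0.51, SE 0.15, adjusted p = 0.084) and UQCR10 (0.31, SE 0.16, adjusted p = 0.40), and COX5A had 0.27 (SE 0.10, adjusted p = 0.19). In all, 6 members had an unadjusted p under 0.05. The members' median was 0.14, against 0.03 for all genes and 0.07 for bright genes, and 64 of 76 values were positive. By complex the medians were 0.07 for complex I, 0.10 for complexes II and III, 0.22 for complex IV and 0.20 for complex V. The median was 0.08 with quantile normalization, 0.23 without siSTAT3 TAM 24 h replicate 2 and 0.06 without replicate 3. A p that misses the threshold does not show that the 2 TAM effects were alike. The siSTAT3 TAM effect did not differ detectably between the times either: 0 members and 0.536% of all genes were called for 24 h against 4 h, and 3 members had an unadjusted p under 0.05, with a median of -0.07 (-0.02 without siSTAT3 TAM 24 h replicate 2 and -0.15 without replicate 3).

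At 4 h the siSTAT3 cells showed no called member after TAM, where 0.819% of all genes were called, and 0 members had an unadjusted p under 0.05. The interaction at 4 h called 0 members, 1 of them (COX7A1) with an unadjusted p under 0.05, where 0.521% of all genes were called.

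Between the siRNAs under the same treatment, few respiratory chain genes differed. In EtOH cells 0 members were called at 4 h (4.28% of all genes) and 0 at 24 h (2.86% of all genes), with 4 and 5 members at an unadjusted p under 0.05. In TAM cells at 24 h 1 of 76 was called, where 16.5% of all genes were: COX5A was 0.29 higher in siSTAT3 cells (SE 0.08, adjusted p = 0.017), with 16658 and 17454 units, against 13802, 14518 and 13599 units in siNEG cells. This call was lost without siSTAT3 TAM 24 h replicate 3 (adjusted p = 0.16) and without siNEG TAM 24 h replicate 3 (adjusted p = 0.056). In TAM cells at 4 h 2 were called, where 9.29% of all genes were. ATP5F1D, the delta subunit of the rotor stalk, had 2871, 2859 and 2904 units in siSTAT3 cells, against 4225, 4079 and 3759 units in siNEG cells, for a log2 difference of -0.48 (SE 0.12, adjusted p = 0.024). It was also lower in EtOH cells at 4 h, with 2909, 3509 and 2771 units in siSTAT3 cells, against 3754, 4678 and 3837 units in siNEG cells, and missed the threshold there (-0.42, adjusted p = 0.087). The other call was the low-signal COX7A1. Of these 2 calls 0 were left without siNEG replicate 1 or siSTAT3 replicate 2, and 1 was left without any of the other 4 arrays.

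ATP5IF1 was the only member called in both EtOH time comparisons. In siSTAT3 EtOH cells it had 3914, 4187 and 4045 units at 24 h, against 3406, 3402 and 3135 units at 4 h, for a log2 difference of 0.29 (SE 0.08, adjusted p = 0.026), and it was the single member called there among 13.4% of all genes. The call was lost without 24 h replicate 2 or 3 and without 4 h replicate 2 or 3 (adjusted p of 0.051 to 0.11). In siNEG EtOH cells it had 4057, 4319.6 and 4180.1 units at 24 h, against 3293, 3529.5 and 3493 units at 4 h. In siSTAT3 TAM cells, 24 h against 4 h, 1 member was called, COX7A1 again, where 14.2% of all genes were.

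The genes of the tissue-specific isoforms gave signals near the bottom of the range. COX6A2 and COX7A1, the heart and muscle forms of complex IV subunits, and COX6B2, COX7B2 and COX8C, known from testis, averaged under 100 units, as did NDUFB2-AS1, NDUFV2-AS1 and the only unshared probe set of ATP5MF. The broadly expressed partners COX6A1, COX6B1, COX7A2 and COX8A fell into the bright class. COX7A1 had 22.1, 16.3 and 34.6 units in siNEG TAM 4 h cells, 9.62 and 41.7 units in siSTAT3 TAM 24 h cells and 2.46 to 9.67 units in the other 6 groups. Its calls (siSTAT3 against siNEG with TAM at 4 h -1.99, 24 h against 4 h -1.85 in siNEG TAM and 1.78 in siSTAT3 TAM) rest on arrays at or below 41.7 units, and the third rests on 1 of its 2 TAM 24 h arrays. COXFA4L2, formerly NDUFA4L2, averaged 47.4 units in siNEG TAM 24 h cells and 27.1 units in siNEG EtOH 24 h cells (log2 fold change 0.99, SE 0.48, adjusted p = 0.24), while its partner COXFA4 had -0.16 (SE 0.08, adjusted p = 0.25).

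Other mitochondrial gene lists were examined in the same fit for TAM at 24 h in siNEG cells, with the lists chosen while earlier results of these data were known. Their counts stand beside 9.31% of all genes and 18.5% of bright genes called lower. Of 9 chain genes outside the naming rule 3 fell and 0 rose, namely ETFB (-0.48) and ETFDH (-0.43), which feed electrons from fatty acid oxidation to quinone, and cytochrome c, CYCS (-0.34). Of 42 assembly factors 10 (23.8%) fell and 0 rose. These included COX20, which assists the assembly of complex IV (-0.60, adjusted p = 9.2e-05), and FMC1, which is needed for ATP synthase assembly in yeast (-0.64, adjusted p = 0.00028). UQCC2 fell as well (adjusted p = 0.031) and averaged only 50.3 units with TAM, against 102 units with EtOH. Of 74 mitochondrial ribosomal proteins 21 (28.4%) fell, among them MRPL34 (-0.73) and MRPL4 (-0.59), and MRPL9 alone rose (0.55). Falls without a rise were also seen in 6 of 23 genes (26.1%) of protein import, led by TIMM17A (-0.43). The same held for 4 of 16 (25.0%) of the tricarboxylic acid cycle and reactions that feed it, led by pyruvate carboxylase, PC (-0.80). It also held for 3 of 13 (23.1%) carriers and antioxidants, led by the ADP/ATP carrier SLC25A4 (-0.41).

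Of 18 regulators of mitochondrial biogenesis 2 (11.1%) fell, near the 9.31% of all genes. The coactivator PPARGC1B averaged 519 ± 65.1 units with TAM and 1037 ± 5.19 units with EtOH at 24 h (SD, n = 3 each; log2 fold change -1.01, SE 0.12, adjusted p = 1.6e-05), and it was already lower at 4 h of TAM (-0.64, SE 0.12, adjusted p = 0.0059), when no respiratory chain gene was called. In siNEG EtOH cells PPARGC1B was also called lower at 24 h than at 4 h (-0.47, SE 0.12, adjusted p = 0.020), where most members had positive values. A link between PPARGC1B and the members was not tested. The nuclear receptor partner of PPARGC1B, ESRRA, fell by 0.47 at 24 h of TAM (SE 0.10, adjusted p = 0.0058). In siSTAT3 cells PPARGC1B had -0.52 at 24 h (SE 0.13, adjusted p = 0.066), and the difference between the 2 TAM effects, 0.49 (SE 0.18), missed the threshold (adjusted p = 0.18), with 0.65 and 0.33 without siSTAT3 TAM 24 h replicate 2 and 3. NRF1 and GABPA, the factors of the motifs above, had 0.03 and 0.18, with adjusted p of 0.87 and 0.59.

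The same lists were set beside the members in siSTAT3 cells, with no test of the difference between lists. With TAM at 24 h in siSTAT3 cells the median of the 74 mitochondrial ribosomal proteins was -0.14, against -0.15 in siNEG cells, and that of the assembly factors was -0.16, against -0.17, while the respiratory chain members had -0.07, against -0.20. Without siSTAT3 TAM replicate 2 the siSTAT3 medians were -0.11 for the ribosomal proteins, -0.14 for the assembly factors and 0.01 for the members, and without replicate 3 they were -0.16, -0.16 and -0.12. No ribosomal protein and 2 assembly factors (LYRM7, -0.61, and NDUFAF4, -0.55) were called there. COX20 was higher with siSTAT3 than with siNEG in EtOH cells, at 24 h (0.46, SE 0.08, adjusted p = 0.0067) and at 4 h (0.61, SE 0.08, adjusted p = 0.00045). Its means at 24 h were 4596 units in siSTAT3 TAM cells, 4551 units in siSTAT3 EtOH cells, 2176 units in siNEG TAM cells and 3314 units in siNEG EtOH cells. The difference in its TAM effect at 24 h, siSTAT3 minus siNEG, was called (0.61, SE 0.13, adjusted p = 0.0085). Without siSTAT3 TAM 24 h replicate 3 this difference was 0.49 and lost its call (adjusted p = 0.082), and without replicate 2 it was 0.73 (adjusted p = 0.0057). The NDUFAF4 call was lost without either array.

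**Figure D4:**
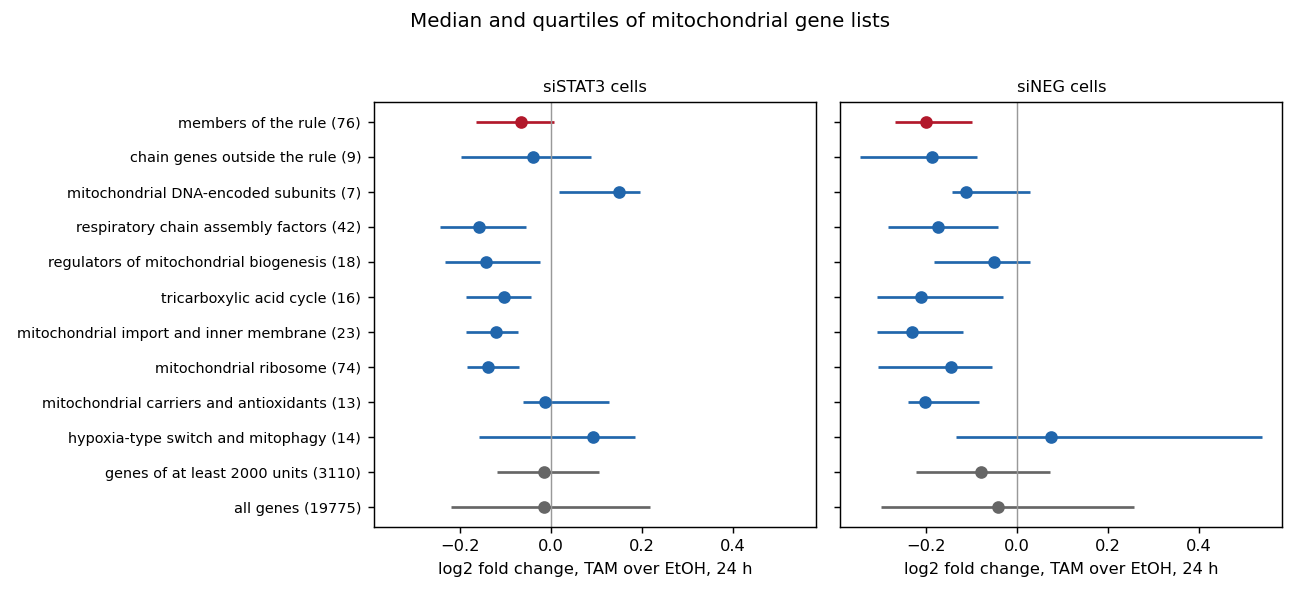
Median (points) and quartiles (lines) of the log2 fold change of TAM over EtOH at 24 h for the 76 respiratory chain members, 9 other mitochondrial or related gene lists, bright genes and all genes, with the number of genes in brackets, in siSTAT3 cells on the left and siNEG cells on the right. The members' median is -0.07 in siSTAT3 cells and -0.20 in siNEG cells, and the ribosomal list sits at -0.14 and -0.15.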

How the data were processed

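The authors hybridized RNA of each sample to an Affymetrix Human Genome U133 Plus 2.0 array and deposited 1 MAS5 signal intensity for each of 54675 probe sets on 23 arrays, on a linear scale. The MAS5 version and the scaling target are not given in the sources used here. The deposited intensities had a mean of 500.0 units on every array after trimming 2% at each end. They were log2 transformed with nothing added. The annotation gives 41097 probe sets 1 symbol, 1801 several and 11777 none, and only the first kind stood for genes.

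A model with 1 mean per group was fitted with limma 3.58.1 in R 4.3.3 (15 residual and 1.27 prior degrees of freedom), with p-values adjusted over all probe sets of a comparison, and was tested on simulated data. Members, lists and comparisons were chosen with earlier results of these data known. Named are called members, the greatest change of each complex, isoform pairs and up to 3 genes of a list. Alternatives were log2 of signal plus 32 units, a filter at 100 units, quantile normalization, the compared arrays alone, a replicate block, an intensity trend with robust variances, means over all probe sets, the call limits of the study (p under 1e-04 and log2 change over 0.5) and leaving out each array. The number of arrays limits the precision.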

Additional observations from a re-analysis of the deposited data

Results flagged for a closer look

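The effect of TAM differed between 24 h and 4 h in siNEG cells, by the test of that difference, for 2 members. For ATP5MC1 the difference was -0.63 on the log2 scale (SE 0.14, limma adjusted p = 0.016), and for SDHD it was -0.38 (SE 0.10, adjusted p = 0.041). This comparison was added after seeing the data. The call of ATP5MC1 held under 18 of 20 alternatives and that of SDHD under 6 of 20. For SDHD 1 alternative turned the direction, to 0.43 with means over all probe sets, which include a probe set of 8.49 units on average.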

How the results depend on the processing

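With the filter at 100 units, which leaves fewer probe sets to adjust over, the counts were 30 for TAM at 24 h in siNEG cells (17 as reported), 3 for TAM at 24 h in siSTAT3 cells, 1 and 5 for siSTAT3 against siNEG in EtOH at 4 h and in TAM at 24 h, and 1 for the interaction of siRNA and TAM at 24 h. They were 22, 8, 4 and 3 for 24 h against 4 h in siNEG EtOH, siNEG TAM, siSTAT3 EtOH and siSTAT3 TAM, and 10 for the interaction of TAM and time in siNEG cells. In the same order the intensity trend with robust variances gave 32, 3, 1, 5, 2, 25, 10, 4, 3 and 11, and 1 for TAM at 4 h in siNEG cells. The compared arrays alone, with fewer arrays to estimate the spread, gave 0 for TAM at 24 h in siNEG cells, for siSTAT3 against siNEG in TAM at both times, for the other time comparisons and for the interaction of TAM and time, but 1 for time in siNEG TAM. The call limits of the study gave 1 for TAM at 24 h in siNEG cells and 0 for the 7 other comparisons with calls. Means over all probe sets gave 2 for TAM at 24 h in siSTAT3 cells, 1 and 5 for siSTAT3 against siNEG in EtOH at 4 h and TAM at 24 h, 1 for the siRNA interaction at 24 h, 11, 2 and 4 for time in siNEG TAM, siSTAT3 EtOH and siSTAT3 TAM, and 5 for TAM and time. They also reversed SDHD in that last test, to 0.43 (adjusted p = 0.78). The further probe set of SDHD averaged 8.49 units, against 6488 units for the main one, and the cause of the reversal was not tested. Adding 32 units gave 2 for siSTAT3 against siNEG in TAM at 24 h and 2 for time in siSTAT3 EtOH. Quantile normalization gave 1 for TAM at 4 h in siNEG cells, 2 for siSTAT3 against siNEG in TAM at 24 h and 1 for TAM and time.

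With 1 array left out, counts were 8 to 11 for TAM at 24 h in siNEG cells, 0 to 1 for TAM at 24 h in siSTAT3 cells, 0 to 1 and 0 to 2 for siSTAT3 against siNEG in TAM at 4 h and 24 h, 0 to 2, 3 to 5, 0 to 1 and 0 to 1 for time in the order above, 1 to 2 for TAM and time in siNEG cells, and 0 to 0 for the others. Same-numbered arrays deviated together little in the median (correlation 0.03 over 77 pairs, 11 of them over 0.1, against -0.02 for other pairs). A median over pairs cannot show whether some arrays were handled together, and the labels name no batch. Replicate 2 had the highest members' median in siNEG TAM 4 h (0.11) and siSTAT3 TAM 4 h (0.13), but the lowest in siNEG EtOH 4 h (-0.06). A replicate block gave 13 for TAM at 24 h in siNEG cells, 4 for time in siNEG EtOH and 1 for TAM at 4 h in siNEG cells.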

Other observations

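Genes of the switch from respiration to glycolysis and of mitophagy moved both ways with TAM at 24 h in siNEG cells, where 5 of 14 rose and 1 fell, with 15.4% of all genes called in either direction. BNIP3, a mitophagy receptor, averaged 6840 ± 450.0 units with TAM and 3832 ± 529 units with EtOH (SD, n = 3 each; log2 fold change 0.84, SE 0.09). PDK1, a kinase that blocks pyruvate entry to the tricarboxylic acid cycle, averaged 3065 ± 104 units with TAM and 1880 ± 52.5 units with EtOH (0.71, SE 0.11, limma adjusted p = 0.00032). In siSTAT3 cells the TAM values were 0.29 for BNIP3 and -0.34 for PDK1. The differences in TAM effect, siSTAT3 minus siNEG, were called for both, at -0.56 (SE 0.14, adjusted p = 0.035) and -1.05 (SE 0.17, adjusted p = 0.0010). The BNIP3 call was lost without either siSTAT3 TAM 24 h array (adjusted p of 0.088 without replicate 2 and 0.13 without replicate 3), while that of PDK1 held, at -1.30 and -0.79.

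Of the subunits encoded in mitochondrial DNA only 7 were measured here. None of these 7 was called for TAM at 24 h with either siRNA, where 15.4% of all genes were called with siNEG and 2.75% with siSTAT3. ND6, a complex I subunit encoded on the other strand from most, was lower at 24 h than at 4 h in all 4 settings, where 12.3% to 21.1% of all genes were called. Its values were -0.56 in siSTAT3 TAM, -0.38 in siSTAT3 EtOH, -0.37 in siNEG TAM and -0.43 in siNEG EtOH cells, with adjusted p of 0.0047 to 0.028. Without siSTAT3 TAM 24 h replicate 2 the first was -0.50 and missed the threshold (adjusted p = 0.056).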
